A study of Mus musculus with 36 samples.

Results

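The first changes that tamoxifen made beside doxycycline were examined in secondary mouse embryonic fibroblasts (MEFs) titled 2ndMEF-KOS-ZERT2 on day 1. The comparison holds 4 of the 36 arrays of the series, 2 of cells given doxycycline and tamoxifen (Dox+Tmx+) and 2 of cells given doxycycline alone (Dox+Tmx-). All 4 arrays lay on 1 slide. The same comparison on days 3 and 6 used 4 other arrays each, on other slides. On each of these slides the arrays without tamoxifen held positions 1 and 2, and those with it positions 3 and 4. Tamoxifen and position on the slide therefore cannot be told apart. Every array paired a sample labelled with Cy3 with 1 common reference labelled with Cy5, and values are log2 ratios of sample to reference. Of 42006 probes, 33099 were well above background on both arrays of at least 1 group of the series and were tested.

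All 4 samples came from clone 1 of a hybrid of C57Bl/6 and 129, called a second generation MEF in the labels, which carries the transgenes named KOS and ZERT2. The cells were grown on gelatin in ES medium with LIF, a cytokine that keeps embryonic stem (ES) cells undifferentiated. All 4 received doxycycline at 1.5 µg/ml, and the Dox+Tmx+ cells also received tamoxifen at 200 nM. Other arrays of the series are used beside them. The same secondary MEFs were kept without doxycycline (Dox-Tmx- and Dox-Tmx+). Primary MEFs, F1 hybrids from V6.5, were either wild or transgenic for Zscan4ERT2 and carried no KOS in their labels; they were grown in MEF medium and labelled Tmx- or Tmx+, and the Tmx+ transgenic cells received tamoxifen at 200 nM. ES cells of line v6.5 gave the pluripotent end point. Each group has 2 arrays. Whether the paired samples of a group are separate cultures is not stated, so the p-values measure a spread between samples that may be technical. The protocols of the wild MEFs labelled Tmx+, and of replicate 2 of the day 1 Dox-Tmx+ cells, mention no tamoxifen. The labels do not name the promoters of the transgenes, and a single clone stands for all secondary MEFs.

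Zscan4 is a zinc finger protein made briefly in the mouse embryo when its own genome is first switched on, and later in a small part of ES cells in culture, where it is linked to the upkeep of telomeres. KOS is the usual abbreviation for Klf4, Oct4 and Sox2, transcription factors that turn fibroblasts into induced pluripotent stem cells, and doxycycline switches on inducible transgenes. ERT2 is an altered ligand-binding domain of the oestrogen receptor; a protein fused to it is held inactive until a tamoxifen compound binds, so adding tamoxifen starts the activity of a protein that is already present. Secondary MEFs carry their inducible factors in every cell, so reprogramming starts at the same time throughout a culture. The series title names Zscan4's part in making induced pluripotent stem cells as the question.

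No gene name was paired with a probe in the sources used here, so probes are given by identifier, and the levels of Zscan4 and of the KOS transgenes were not checked. The arrays of ES cells and untreated wild MEFs served as markers of cell state. Probes at least 4-fold higher in ES cells are called ES-high (1201 of 33098 tested, 3.63%), and those at least 4-fold higher in wild MEFs are called MEF-high (2507, 7.57%), all with an adjusted p under 0.05 in limma. The median log2 ratio of the ES-high probes was -1.73 and -1.72 on the arrays of untreated wild MEFs and 1.11 on both arrays of ES cells. On the day 1 arrays it was -1.43 and -1.38 with doxycycline alone and -1.39 and -1.31 with tamoxifen. By this list the day 1 cells lay near the MEF end. For the MEF-high probes the medians were 0.38 and 0.39 with doxycycline alone and 0.36 in both tamoxifen samples. They were 1.21 and 1.23 in untreated wild MEFs and -1.88 and -1.81 in ES cells. In secondary MEFs given neither drug they were 0.44 and 0.51 on day 1, so most of the distance from wild MEFs was present without doxycycline.

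The probes are 60 bases long. Among the probes that changed on day 1, 4 pairs overlap end to start. They are shown because both members of such a pair can read the same RNA through separate spots. Capitals mark the shared bases, and each line gives 30 bases of a probe, 5′ to 3′.
Z00075380-1, last 30 bases: tcagtccctctAACATGCATTTTCTGGCAA
Z00053992-1, first 30 bases: AACATGCATTTTCTGGCAAaatcaaagctt
Z00075598-1, last 30 bases: ggctccatggcgGGTAAAGGAAATTTAAAC
Z00026727-1, first 30 bases: GGTAAAGGAAATTTAAACacgaggctcaac
Z00075368-1, last 30 bases: gcacaatcccaccattttttaAAGGGCTAT
Z00046376-1, first 30 bases: AAGGGCTATatctcacaattaccactgttg
Z00074226-1 and Z00076725-1, 30 of the shared bases: CGCTCTGGGGAGAACATACCTATGGCATAT
The shared stretch was 19 bases in the first pair, 18 in the next, 9 in the third and 45 in the last. Because 9 bases are few, the third pair is less certain to read 1 RNA than the others. The probes with the largest changes, and those that best show growth and fading, follow with their first 30 bases.
Z00023304-1, largest rise: tgctggtgatgtggaagactactgaaaaga
Z00004876-1, next largest rise: caatcagactcacccaatgcttaagaatag
Z00058073-1, rise that grew later: gtttgcctcttatctccaaagtaagttctg
Z00024687-1, largest fall: aaaccaaaaccacaaacaacacaacacgaa
Z00031495-1, fall that faded: gcttcgaggaagtcaaaccttgtttctgac
The letters AATAAA, which signal the end of many messenger RNAs, stood in 15 of the 91 rising probes (16.5%), 2 of the 34 falling probes (5.88%) and 7.31% of the probes tested. The motif was searched on the probe strand only, and its match is a description of the sequence.

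On day 1, tamoxifen beside doxycycline changed few transcripts, and by little. Of 33099 probes tested, 91 rose (0.275%) and 34 fell (0.103%) at an adjusted p under 0.05 (limma, Benjamini-Hochberg over all probes tested). A single rising probe passed 2-fold, and no falling probe did; 18 rises and 5 falls reached 0.5 on the log2 scale. All 125 probes were well above background on all 4 arrays, and none was saturated. Per array, the share well above background was 72.5% and 75.3% with doxycycline alone and 67.4% and 69.2% with tamoxifen. Whether this difference bears on the day 1 changes was not tested. For all 125 the arrays of the groups did not overlap, but the test that chose them used these same arrays. The lack of overlap is therefore no separate support, and its share over all tested probes was not counted. Over all tested probes the 4 arrays were as alike between groups as within them: the median absolute difference was 0.0598 and 0.0529 log2 units within the groups and 0.0577 to 0.0636 between them. An unadjusted p under 0.05 was reached by 1684 probes (5.09%). With the local backgrounds as deposited 26 probes passed, all among the 125, and a fit to the 4 arrays alone passed 18. Median centring in place of loess passed 52, all among the 125, and the log ratio of the scanner software 69, of which 59 were among them. Other settings passed more probes outside the 125. The deposited series matrix, which holds 100 of the 125, passed 139, of which 69 were among them. Without background subtraction 151 passed, 117 of them among the 125, and with a replicate block 105 passed, 86 of them among the 125. Leaving out any 1 of the 4 arrays lowered the number of calls, most of all without Dox+Tmx- replicate 1. In each case some calls were not among the 125. All 125 kept their sign in each.

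The largest rise among the probes that passed was that of Z00023304-1. Its log2 ratios on day 1 were 1.94 and 1.99 with doxycycline alone and 3.32 and 3.23 with tamoxifen. Both tamoxifen samples lay above both others, a rise of 1.31 (SE 0.080, 2.48-fold, limma adjusted p = 1.12e-09). Without doxycycline the same drug left it at 0.12 and -0.09, against 0.06 and 0.07 in untreated cells. The difference between the responses with and without doxycycline was 1.36 (SE 0.113, adjusted p = 7.1e-07). This probe was neither ES-high nor MEF-high.

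Next came Z00004876-1, an ES-high probe, with ratios of -1.96 and -1.94 with doxycycline alone and -1.08 and -1.03 with tamoxifen. The groups did not overlap, and the rise was 0.90 (SE 0.109, limma adjusted p = 8.12e-05). Z00000953-1, also ES-high, stood at -3.77 and -3.79 with doxycycline alone and at -3.01 and -2.93 with tamoxifen, a rise of 0.81. Z00058073-1 went from -1.49 and -1.44 to -0.77 and -0.63, a rise of 0.77 (SE 0.058, adjusted p = 4.41e-08). In each of these 3 probes the tamoxifen samples were the higher ones, and all 4 day 1 values stayed below the ES cell values, which were 1.76 and 1.74, 0.92 and 0.89, and 1.24 and 1.30. Without doxycycline the changes of the 3 probes were -0.11, -0.14 and 0.007, and none passed.

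Among the falls, Z00031495-1 had ratios of 1.75 and 1.82 with doxycycline alone and 1.12 and 1.22 with tamoxifen. The tamoxifen samples were both lower, a change of -0.61 (SE 0.073, limma adjusted p = 7.39e-05). Z00044945-1 stood at 2.83 and 2.88 with doxycycline alone and at 2.39 and 2.18 with tamoxifen, a change of -0.57 (SE 0.079). The largest fitted fall, of Z00024687-1, was -0.68 (SE 0.092, adjusted p = 0.000311), from 1.26 and 1.47 to 0.65 and 0.73; its sign turned to 0.17 with the log ratio that the scanner software wrote, so its direction rests on the processing. The other two kept their direction under the 12 alternatives run, and fell short of the threshold in 3 (Z00031495-1) and 2 (Z00044945-1) of them.

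**Figure D1:**
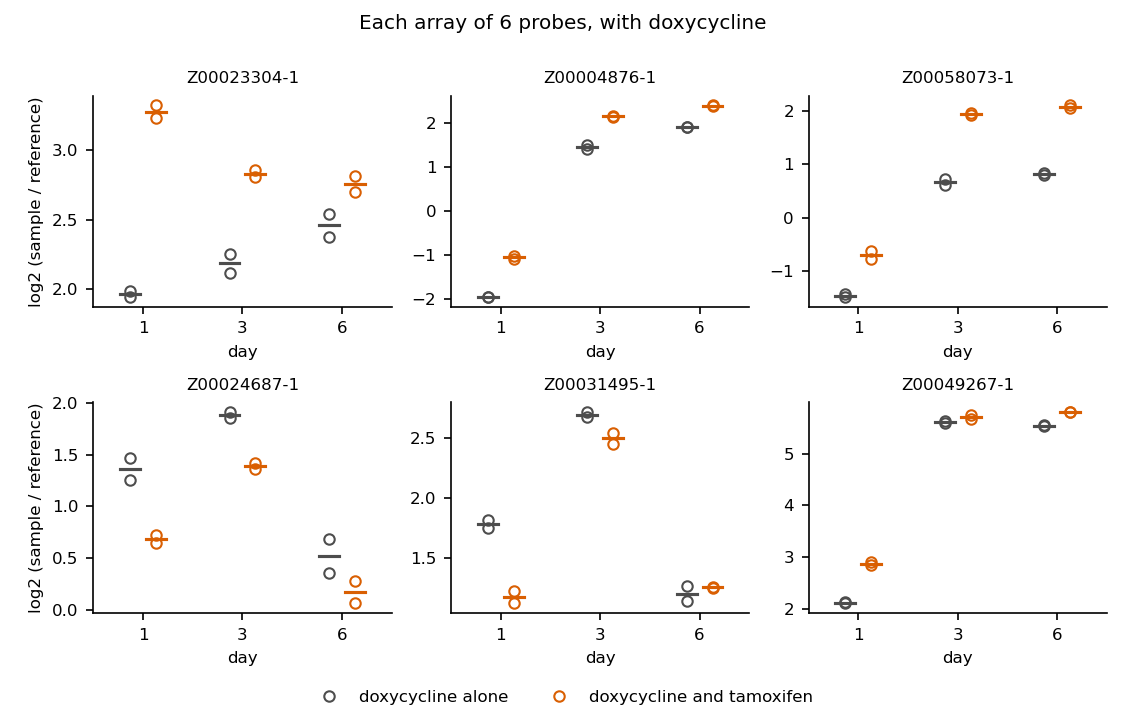
Log2 ratios of sample to reference (y axis) on days 1, 3 and 6 for 6 probes; each open circle is 1 array, grey for doxycycline alone and orange for doxycycline and tamoxifen, and bars are means of 2. Z00023304-1 shows its widest gap on day 1 (1.31), Z00058073-1 its narrowest (0.77), and Z00031495-1 has no gap left on day 6 (0.05).

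The overlapping probes gave nearly equal day 1 changes. The ES-high pair Z00074226-1 and Z00076725-1 rose by 0.40 (SE 0.067) and 0.50 (SE 0.060). Z00075380-1 and Z00053992-1 rose by 0.44 (SE 0.079) and 0.41 (SE 0.070), and Z00075598-1 and Z00026727-1 by 0.36 (SE 0.070) and 0.33 (SE 0.060). The falling pair Z00075368-1 and Z00046376-1 changed by -0.31 (SE 0.061) and -0.35 (SE 0.056). Another 3 called probes overlapped a probe that did not pass on day 1. Z00074483-1, which rose by 0.42, shares 48 bases with Z00014749-1 (0.33, limma adjusted p = 0.0984). Z00054855-1, which rose by 0.38, shares 33 bases with Z00043062-1 (0.26, adjusted p = 0.325), and Z00026043-1, which rose by 0.38, shares 36 with Z00060172-1 (0.20, adjusted p = 1). Each partner had the sign of the probe that passed in the main fit, but the partners were chosen after their values were seen. Z00043062-1 kept its sign in 11 of 12 alternatives, with a lowest change of -0.83. Z00060172-1 kept it in 10 of 11, with a lowest change of -0.01, and its arrays overlapped between the groups. Z00026043-1 also shares a run of 28 bases with Z00026084-1 (0.24, adjusted p = 0.626), so near-identical transcripts may be read together there.

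Of the day 1 rises, 67 passed again on day 3 and 74 on day 6. Of the 91 rising probes, 58 passed the test in the same direction on both day 3 and day 6, 9 on day 3 only, 16 on day 6 only and 8 on neither day. Over all tested probes 7.34% passed on day 3 and 9.24% on day 6, of which 1721 rises (5.2%) and 2254 rises (6.81%) as the background for these counts. Rises and falls together, 91 of the 125 passed again on day 3 and 89 on day 6. These counts moved with the processing: of the 26 probes that passed on day 1 with local backgrounds as deposited, 17 passed again on day 3 and 12 on day 6. Leaving out 1 array gave 30 to 77 on day 3 and 32 to 79 on day 6, the fewest without day 1 Dox+Tmx- replicate 1, and 32 on both days without day 1 Dox+Tmx+ replicate 2. Without day 1 Dox+Tmx+ replicate 1 both counts were 43, and without day 1 Dox+Tmx- replicate 2 they were 54 and 50. In the other direction no rising probe passed on either day, and 86 of 91 kept their sign on both. The median change of the 91 was 0.38 on day 1 and 0.39 on both later days. These later arrays are separate from those of day 1, but the fit shares 1 estimate of each probe's spread across all arrays. A probe with a small estimate thus passes more easily on every day. The tamoxifen samples also held the same positions on the slide each day, so a position effect and a lasting change cannot be told apart. Of all day 3 calls 70.8% were rises, against 88.6% with median centring and 60.4% with the log ratio of the scanner software; on day 6 the share was 73.7%, against 58.5% with that log ratio. Leaving out 1 of the 4 day 3 arrays lowered the number of calls of that day from 2430, most of all without Dox+Tmx+ replicate 1. Leaving out 1 day 6 array lowered the number of that day from 3057, most of all without Dox+Tmx- replicate 2.

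Fewer of the falls passed again on day 6. Of 34 falling probes, 15 passed again on both later days, 9 on day 3 only, none on day 6 only, and 10 on neither day. The background was 709 falling probes on day 3 (2.14%) and 803 on day 6 (2.43%). Their median change went from -0.37 on day 1 to -0.27 on day 3 and -0.17 on day 6. Whether rises and falls differ in how long they last was not tested. One probe turned over: Z00048752-1 stood at 0.92 and 1.04 with doxycycline alone and 0.72 and 0.75 with tamoxifen on day 1, then at -0.08 and -0.05 against 0.12 and 0.13 on day 3. It was lower with tamoxifen on day 1 (-0.24, SE 0.046) and higher on day 3 (0.20, SE 0.046, limma adjusted p = 0.00765), and the difference between these days had an adjusted p of 0.000346.

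**Figure D2:**
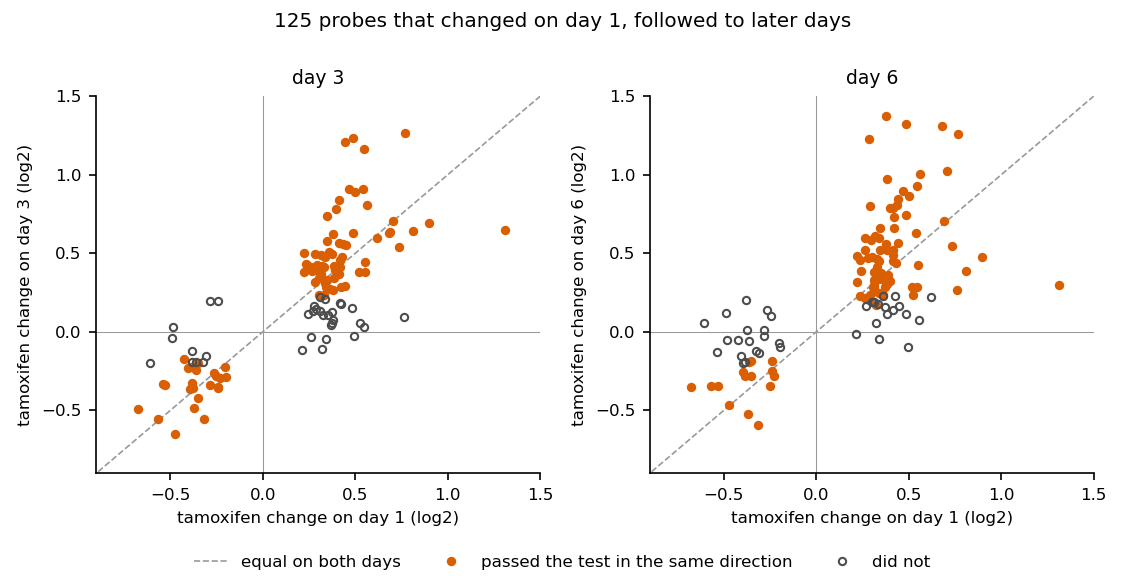
Tamoxifen's change beside doxycycline on day 1 (x axis, log2) against that on day 3 (left) and day 6 (right) for the 125 probes that passed on day 1; filled points passed again in the same direction, open points did not, and the dashed line marks equal change. Rising probes cluster above 0 on both days, whereas many falling probes lie near 0 on day 6, where their median was -0.17.

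Whether a change grew or shrank was read from the difference between the days, which again uses the day 1 arrays that chose the probes. Day 1 changes of chosen probes tend to be overstated, so shrinkage is easier to find than growth. Day 6 differed from day 1 at 812 of all tested probes (2.45%), 719 upwards (2.17%) and 93 downwards (0.281%); leaving out 1 array gave 486 (without day 1 Dox+Tmx+ replicate 1) to 709. Of the 91 rising probes, 17 had a larger rise on day 6, and 5 had a lower change than on day 1. Of the 34 falling probes 7 had a higher change on day 6 than on day 1, 5 of them above 0, and 0 had a deeper fall. Day 3 differed from day 1 at 374 tested probes (1.13%), 333 upwards (1.01%) and 41 downwards (0.124%), among them 15 of the 91, 9 with a larger rise and 6 with a lower change, and 2 of the 34, Z00048752-1 and Z00046441-1. Both were lower with tamoxifen on day 1 and above 0 on day 3; Z00046441-1 went from -0.28 to 0.20, which did not pass as a rise (limma adjusted p = 0.051).

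Of the 17 rises that grew, 13 were ES-high probes, against 36 of all 91 day 1 rises (39.6%). Over all ES-high probes the median difference between days 6 and 1 was 0.138, against 0.008 over all tested probes. Z00058073-1 reached 1.95 and 1.91 with tamoxifen on day 3, against 0.72 and 0.61 without it, and 2.05 and 2.10 against 0.80 and 0.82 on day 6. Its change went from 0.77 to 1.27 and 1.26, a gain of 0.49 by day 6 (SE 0.082, limma adjusted p = 0.000551). On days 3 and 6 its tamoxifen samples also lay above the ES cells (1.24 and 1.30), whereas those with doxycycline alone lay below them.

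Other growing rises began smaller. Z00057834-1 was at -1.89 and -1.88 with doxycycline alone on day 1 and at -1.22 and -1.19 with tamoxifen; on day 6 the values were 1.21 and 1.14 against 2.51 and 2.46. The groups stayed apart on both days, and the change rose from 0.68 to 1.31 (difference 0.63, SE 0.078, limma adjusted p = 1.36e-05). Z00026598-1 rose by 0.28 on day 1 and 1.23 on day 6 (difference 0.94, SE 0.081), and Z00066926-1 by 0.49 and 1.32 (difference 0.84, SE 0.141). The largest gain of the 17 was that of Z00026043-1, from 0.38 to 1.37 (difference 1.00, SE 0.115, adjusted p = 6.51e-06); its neighbours Z00060172-1 and Z00026084-1, not called on day 1, rose by 1.35 and 1.55 on day 6. It is not an ES-high probe: its ratio in ES cells was 0.04 and 0.03, and in untreated wild MEFs 0.01 and -0.06.

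Fading rises were led by the largest of all. Z00023304-1 had values of 2.86 and 2.81 with tamoxifen on day 3 against 2.25 and 2.12 without, and 2.82 and 2.70 against 2.54 and 2.37 on day 6. The tamoxifen samples stayed the higher ones on each day, and the day 1 gap of 1.31 shrank to 0.65 and then 0.30, each past the threshold. The difference between days 6 and 1 was -1.01 (SE 0.113, limma adjusted p = 4.45e-06). Z00049267-1 rose by 0.76 on day 1, from 2.10 and 2.13 to 2.90 and 2.85. On day 3 it stood at 5.59 and 5.62 without tamoxifen and 5.67 and 5.74 with it. That change of 0.10 did not pass (limma adjusted p = 0.599), and the day 6 change was 0.27. The mean log2 intensity of its samples, not set against the reference, was 9.43 with both drugs and 8.60 with doxycycline alone on day 1. It was 14.63 and 13.79 on day 3 and 14.98 and 14.14 on day 6, a gap that did not narrow. Why the ratio and the intensity of Z00049267-1 differ in this was not tested. Its ratio in ES cells was 0.05 and 0.25, and in untreated wild MEFs -0.35 and -0.34, far below the level with doxycycline. Z00028981-1 went from 0.55 on day 1 to 0.38 and 0.07, and Z00064341-1 from 0.62 to 0.59 and 0.22, where the difference from day 1 did not pass (adjusted p = 0.105). Z00028735-1, with 0.49 on day 1 and -0.03 and -0.09 later, passed on day 1 only narrowly (adjusted p = 0.0466) and not under any of 11 alternatives.

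Among falls, Z00031495-1 stood at 2.72 and 2.67 with doxycycline alone and 2.54 and 2.45 with tamoxifen on day 3, and at 1.14 and 1.26 against 1.26 and 1.25 on day 6. The gap of -0.61 had become -0.20 and then 0.05, a difference between days 6 and 1 of 0.66 (SE 0.103, limma adjusted p = 0.000275). Z00022778-1 went from -0.49 to -0.04 and 0.12. Z00074525-1, 1 of 2 ES-high probes that fell, went from -0.38 to -0.19 and 0.21, and Z00060231-1 from -0.43 to -0.17 and -0.06. By contrast, Z00033785-1 changed by -0.47, -0.65 and -0.47 on the 3 days and Z00012739-1, a MEF-high probe, by -0.32, -0.55 and -0.59; for neither did a difference from day 1 pass.

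**Figure D3:**
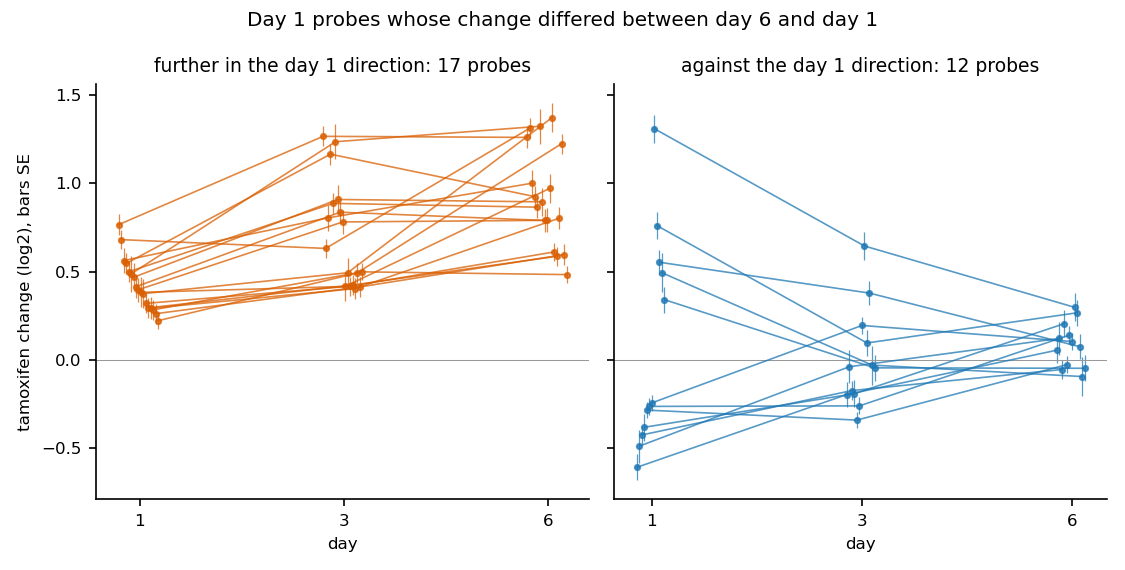
Tamoxifen's change beside doxycycline (y axis, log2, bars SE) on days 1, 3 and 6 for the probes whose change differed between day 6 and day 1; each line is 1 probe, shifted sideways for visibility. The 17 probes on the left rose more on day 6 than on day 1; of the 12 on the right, 5 rises were lower and 7 falls higher on day 6, and 5 of those falls lay above 0.

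The overlapping probes followed each other through time as well. Z00074226-1 and Z00076725-1 changed by 0.78 and 0.89 on day 3 and 0.79 and 0.87 on day 6, and for both the difference from day 1 passed on each later day. Z00075380-1 and Z00053992-1 changed by 0.29 and 0.18 on day 3 and by 0.57 and 0.49 on day 6. The changes of Z00075598-1 and Z00026727-1 were 0.51 and 0.48 on day 3 and 0.23 and 0.18 on day 6. No member of either pair had a difference from day 1 that passed. In both of these pairs 1 member passed on both later days and the other on 1 of them. In the falling pair Z00046376-1 passed on both later days (-0.20 and -0.19) and Z00075368-1 on neither (-0.16 and -0.14). The members of these pairs thus fell into different classes although their changes lay close together.

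**Figure D4:**
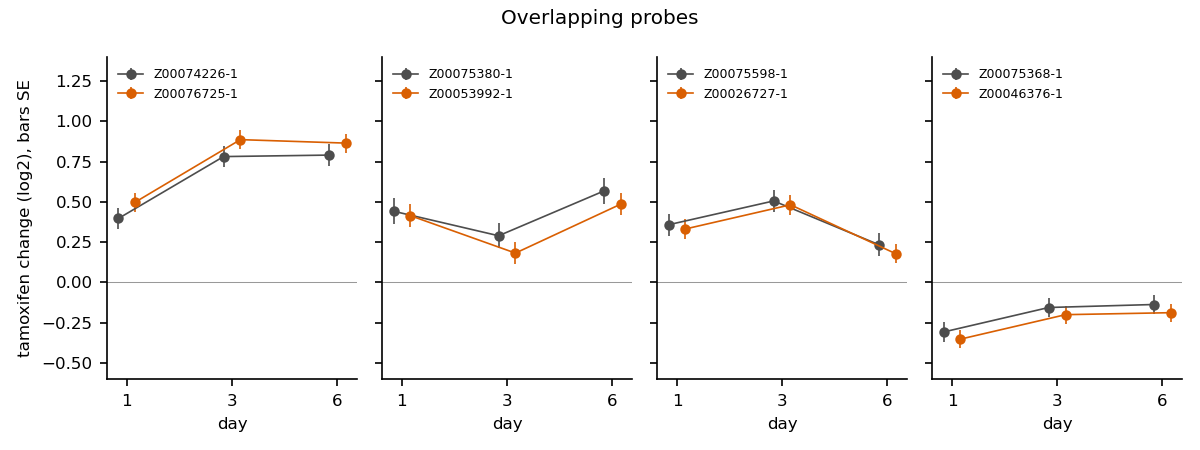
Tamoxifen's change beside doxycycline (y axis, log2, bars SE) on days 1, 3 and 6 for 4 pairs of probes whose sequences overlap; grey and orange are the 2 probes of a pair. Members of a pair follow the same course, for example 0.78 and 0.89 on day 3 in the first.

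Doxycycline itself also raised most of the rising probes. On the day 3 arrays without tamoxifen, which the day 1 comparison does not use, doxycycline raised 84 of the 91 and lowered 3, against 31% and 27% of all tested probes; on day 6 it raised 84 and lowered 5, against 28.9% and 25.5% of all tested probes, of which 54.4% passed either way. The day 3 doxycycline effect had a median of 2.73 log2 units for the 91 probes, where 77 had a called rise of at least 2-fold (8.09% of all tested). Of the 34 falling probes doxycycline raised 21 on day 3 and lowered 11, and 19 had a called rise of at least 2-fold. Z00044945-1 and Z00033785-1 were raised by 4.42 and 6.56, and tamoxifen lowered both. Doxycycline-treated and untreated cells were on separate slides, as were ES cells and wild MEFs, and slide cannot be told apart from those effects. ES cells and wild MEFs were also scanned on different days. The level of the doxycycline-driven transgenes in each sample was not measured here, and its part in the day 1 differences was not tested.

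ES-high probes made up 36 of the 91 rising probes (39.6%) and 2 of the 34 falling ones (5.88%), against 3.63% of all tested. Of the probes raised by doxycycline on day 3, 7.63% were ES-high, and of the 84 that also rose on day 1, 36 (42.9%). Of the 36, 29 passed on both later days. Of all 1201 ES-high probes 292 rose on both later days (24.3%), against 3.16% of all tested, and of the 50 rising probes in neither marker class 27 did; whether the classes differ in how long a day 1 rise lasts was not tested. MEF-high probes were 5 of the rising (5.49%) and 9 of the falling probes (26.5%), against 7.57% of all tested. Seen from the lists, 36 of 1201 ES-high probes rose (3%), and their median change was 0.031 against -0.00077 for all tested probes. Without Dox+Tmx+ replicate 2 that median was 0.003 and without Dox+Tmx+ replicate 1 0.065; the spread between arrays of a group was 0.022. The MEF-high median was -0.022, against a spread of 0.024. The 5 MEF-high probes that rose include the pair Z00075380-1 and Z00053992-1, which stood at 4.31 and 4.32, and 3.31 and 3.34, in untreated wild MEFs, at -1.94 and -1.98, and -1.68 and -1.76, in untreated secondary MEFs on day 1, and at 0.28 and 0.35, and 0.35 and 0.38, with doxycycline alone. These markers of wild MEFs were thus low in the untreated secondary MEFs.

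Without doxycycline tamoxifen changed no probe on day 1 in limma (0%, 0 of 33099), although 2368 (7.15%) had an unadjusted p under 0.05. The deposited series matrix gave 49 calls in the same kind of fit, and leaving out 1 of the 4 arrays gave 1 to 87, the most without Dox-Tmx- replicate 1. None of the 125 probes passed there. Of the 91 rising probes 27 had a positive change without doxycycline, against 49.5% of all tested probes, and the median of the 91 was -0.061. All ES-high probes had a median of -0.054 there, the 36 rising ES-high probes -0.082 and the 55 other rising probes -0.016. The test of the difference between the 2 tamoxifen effects passed for 37 probes (0.112%), 30 upwards (0.0906%) and 7 downwards (0.0211%), among them 30 of the 91 and 6 of the 34, and these 36 had the larger change beside doxycycline. Leaving out 1 array gave 107 calls without Dox-Tmx- replicate 1, and between 16 and 47 otherwise. The test uses the day 1 arrays that chose the probes, and replicate 2 of the Dox-Tmx+ cells has the protocol that mentions no tamoxifen.

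In primary Zscan4ERT2 MEFs, which received tamoxifen and no doxycycline, a part of the day 1 probes changed the same way. Tamoxifen lowered 16 of the 34 falling probes, against 1.43% of all tested, and raised none of them. It raised 21 of the 91 rising probes, against 1.62%, and lowered 1. In wild MEFs labelled Tmx+ none of the 125 passed in either direction (0.0453% of all tested rose and 0.26% fell). The difference between transgenic and wild MEFs passed for 9 of the 16 falling probes (0.375% of all tested fell by it) and 8 of the 21 rising ones (0.384% rose). Over all probes tamoxifen changed 1009 in the transgenic MEFs (3.05%), 394 without Tmx+ replicate 2 and 1704 without Tmx+ replicate 1. No 2 primary groups shared a slide, and in these values a slide effect and a group effect cannot be told apart. Untreated and treated Zscan4ERT2 MEFs were also scanned on different days, whereas both wild groups were scanned on the same day. The wild MEFs therefore do not show what a change of scan day does, and scan day cannot be told apart from tamoxifen in the transgenic cells.

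Falls shared with the primary cells include some of larger size there. Z00013064-1 had ratios of 1.54 and 1.62 in untreated and 0.78 and 0.71 in tamoxifen-treated Zscan4ERT2 MEFs, and 1.57 and 1.53, and 1.58 and 1.62, in wild MEFs without and with the Tmx+ label. The treated transgenic samples were the only low ones, a change of -0.83 (limma adjusted p = 7.07e-09). On day 1 in secondary MEFs it went from 1.65 and 1.69 to 1.32 and 1.28, and it remained lower with tamoxifen on days 3 and 6 (-0.49 and -0.52). Z00011620-1 changed by -0.71 in primary MEFs and -0.38 on day 1, Z00075591-1 by -0.85 and -0.36, Z00024196-1 by -0.83 and -0.33, and Z00025574-1 by -0.68 and -0.36. These 16 are the probes that passed in primary MEFs, and in 15 of them the fitted fall was larger there than on day 1. The other 18 had a median change of -0.038 in primary MEFs, and over all 34 the median was -0.20 there against -0.37 on day 1. Of these 16, 14 passed limma's test as lower in ES cells than in untreated wild MEFs, as did 24 of all 34 falling probes (70.6%) and 40% of all tested probes (73.4% differed in either direction). The overlapping probes Z00075368-1 and Z00046376-1 fell by 0.38 in both cases.

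Of the 21 shared rises, 9 were larger in primary MEFs than on day 1. Z00022867-1 stood at -1.68 and -1.59 in untreated and -1.25 and -1.22 in treated Zscan4ERT2 MEFs, a rise of 0.40, and rose by 0.38 on day 1. Z00075589-1 rose by 0.40 in primary MEFs and 0.31 on day 1, and Z00037355-1 by 0.39 and 0.35. The largest day 1 rise is not among them: Z00023304-1 was at -0.09 and -0.19 in untreated and -0.02 and -0.18 in treated Zscan4ERT2 MEFs, a change of 0.04 (limma adjusted p = 0.854).

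**Figure D5:**
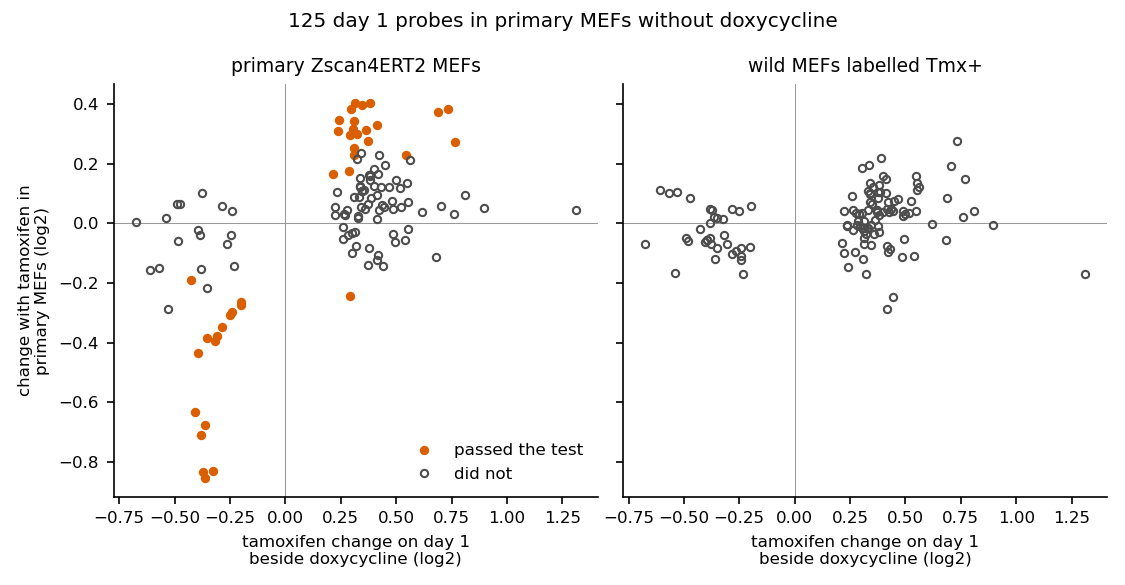
Tamoxifen's change on day 1 beside doxycycline (x axis, log2) against the change in primary MEFs without doxycycline (y axis, log2), for Zscan4ERT2 MEFs (left) and wild MEFs labelled Tmx+ (right); each point is 1 of the 125 probes, filled where the primary MEF change passed the test. On the left 16 falling and 21 rising probes passed in the day 1 direction, and on the right none did.

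Most probes that changed on both later days did not pass on day 1. Of 1047 probes that rose on both day 3 and day 6 (3.16% of all tested), 838 had a positive day 1 change (80%), 268 an unadjusted p under 0.05 in that direction (limma), and 58 passed. Of 288 that fell on both days (0.87%), 264 were negative on day 1 (91.7%), 96 had an unadjusted p under 0.05 in that direction, and 15 passed. Over all tested probes 49.5% had a positive day 1 change, and 5.09% had an unadjusted p under 0.05 in either direction in limma. On day 1, 0.275% of all tested probes passed as rises and 0.103% as falls. Among the later rises not called on day 1, 263 of 989 were ES-high (26.6%), against 3.63% of all tested. Among the later falls not called on day 1, 154 of 273 were MEF-high (56.4%), against 7.57% of all tested.

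The clearest late rise was that of Z00029389-1, an ES-high probe. Its day 1 ratios were 0.20 and 0.27 with doxycycline alone and 0.46 and 0.39 with tamoxifen, a difference of 0.19 that did not pass (limma adjusted p = 0.84). It then stood at 0.32 and 0.25 against 1.63 and 1.70 on day 3, and at 0.91 and 0.82 against 2.83 and 2.64 on day 6, changes of 1.39 and 1.87. Z00038074-1, also ES-high, changed by 0.13, 1.34 and 1.58 on the 3 days. Of the late falls, Z00022184-1 and Z00029447-1 showed day 1 changes of 0.007 and 0.05, day 3 changes of -0.84 and -0.83, and day 6 changes of -0.96 and -0.93. Both were below -0.8 on the later days and showed no fall on day 1 in the main fit. Z00029447-1 was dim on day 1, when 1 of its tamoxifen arrays was well above background. Its mean log2 intensity was then 6.25 with both drugs and 6.33 with doxycycline alone, against 7.51 and 8.10 with doxycycline alone on days 3 and 6. A day 1 fall would be hard to see from there. Over 11 alternatives its day 1 change ranged from -0.47 to 0.10. These 4 probes were chosen as the largest later changes among those not called on day 1, so their contrast with day 1 is a description.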

How the data were processed

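Per the file headers, Agilent Feature Extraction 9.5.1.1 measured the spots. The deposited values used were each spot's mean intensity and its local background intensity in both channels; the log10 ratio deposited beside them, and the authors' deposited series matrix, whose values lie close to log10 of the sample channel and whose adjustment and centring no source used here states, served as alternatives. With limma 3.58.1 in R 4.3.3, local backgrounds marked as outliers were replaced by the array's median, background was corrected by normexp (offset 50), and ratios were normalized by loess within arrays, with control and non-uniform spots given no weight. The filter removed 8907 probes. All 36 arrays entered 1 fit with a mean for each group, which left 18 residual degrees of freedom (prior 5.05). Arrays with and without tamoxifen share a slide on each day in secondary MEFs, so slide as a block leaves those differences as they are. Their positions on the slide differ in the same way each day, and no fit can separate position from tamoxifen.

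Probes described are the 2 unnamed ones with the largest day 1 change in each class; the others were chosen after their values were seen. The members and lists were chosen with earlier results of these data known. Gene lists could not be used without gene names. Replicate numbers did not pair consistently: deviations of same-numbered arrays on a slide correlated from -0.264 to 0.529. The fit was tested on simulated data.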

Additional observations from a re-analysis of the deposited data

Results flagged for a closer look

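Some tamoxifen effects differed between days, or with and without doxycycline, by limma's test of the difference itself (adjusted p under 0.05). The numbers of such probes were 374 for day 3 against day 1, 812 for day 6 against day 1, and 37 for the effect with against without doxycycline on day 1. Z00023304-1 changed by -0.66 from day 1 to day 3, by -1.01 from day 1 to day 6, and responded by 1.36 more with doxycycline than without. Z00049267-1 had differences of -0.67, -0.49 and 0.62 in the same order, and Z00058073-1 of 0.50, 0.49 and 0.76. For Z00031495-1 the day 6 difference was 0.66 and the doxycycline difference -0.78. The doxycycline difference of Z00004876-1 was 1.01, and the day 6 difference of Z00028735-1 was -0.59. Among probes chosen for a large later change and none on day 1, Z00029389-1 had differences of 1.20 to day 3 and 1.68 to day 6, and Z00038074-1 of 1.45 to day 6. Z00022184-1 had differences of -0.85 and -0.97, and Z00029447-1 of -0.88 and -0.97. With 2 arrays per group, single arrays that stand apart were not looked for.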

How the results depend on the processing

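Day 1 sizes are those of probes chosen by their day 1 test, and comparisons between days reuse those arrays. Why counts moved with the settings below was not tested. In the order day 1, day 3, day 6, day 3 minus day 1, day 6 minus day 1, doxycycline difference, primary MEFs, and day 1 probes passing again on days 3 and 6, the counts were 26, 1006, 1399, 85, 199, 1, 282, 17 and 12 with local backgrounds as deposited. They were 69, 1552, 2029, 113, 343, 5, 1553, 45 and 41 with the log ratio of the scanner software, and 52, 1233, 1633, 173, 411, 9, 481, 39 and 35 with median centring. Without background subtraction the primary MEF count was 3393. The deposited series matrix gave 84 for the doxycycline difference, 1893 for primary MEFs, 16012 for ES cells and 49 for tamoxifen without doxycycline. The 4 arrays alone gave 18 on day 1. A replicate block, although the numbers do not pair the samples, gave 105 calls on day 1 and 1 for tamoxifen without doxycycline. Leaving out 1 array gave 48 to 95 on day 1, 1285 to 1487 on day 3, 1824 to 2243 on day 6, 201 to 274 and 486 to 709 for the differences from day 1, 1 to 87 without doxycycline, 16 to 107 for the doxycycline difference, 394 to 1704 in primary MEFs and 22806 to 23103 in ES cells. Day 1 probes passing again were then 30 to 77 on day 3 and 32 to 79 on day 6, and the ES-high and MEF-high medians 0.0028 to 0.065 and -0.030 to -0.012. Omitting the filter on dim probes moved none of the 13 results by over 1.5 times. Rises were 72.8% of day 1 calls, 56.1% with the series matrix and 94.4% with the 4 arrays alone. With the series matrix they were 54.8% on day 3 and 55.9% on day 6. Z00024687-1 turned to 0.17 with the scanner log ratio.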
